A study of Mus musculus with 8 samples.

Results

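Liver-specifying transcription factors are DNA-binding proteins that open and maintain the hepatic gene programme. The 8 genes described here are Hnf4a, Foxa1, Foxa2, Foxa3, Gata4, Gata6, Prox1 and Onecut1, chosen by symbol from the 50578 genes of the count table, and all 8 were found. The samples were untreated mouse embryonic fibroblasts (MEFs) and MEFs cultured with carbidopa, CHIR-99021 or LY-364947, which the labels write LY-364747, and RNA-seq gave 2 libraries for each of the 4 groups. Each compound was used at 10 µM, and the time of treatment before sequencing was not given in the sources used here. All groups came from C57BL/6J embryos, and no label names a genetic change. The embryos were taken at mid-gestation, without head, tail, limbs and internal organs. The study used MEFs of early passage, and no source says whether the libraries of a group came from separate cultures or embryos, so p-values measure only the spread between these samples, which may be technical. Carbidopa blocks the decarboxylase that makes dopamine and serotonin, LY-364947 blocks the type I receptor of TGF-beta, and CHIR-99021 blocks GSK3 and so turns on Wnt signaling. The labels call the treated cells hepatic-like, and the comparison with MEF asks which of these factors differed in the treated cells. No source used here says whether the MEF libraries were cultured and harvested beside the treated ones. An effect of the compounds and a difference in culture or handling shared by all treated libraries therefore cannot be told apart.

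In the embryo, FOXA proteins and GATA4 and GATA6 bind closed chromatin in the foregut endoderm before liver genes are expressed, and the GATA factors are needed for the liver bud to grow. PROX1 is needed for hepatoblasts to leave the bud. ONECUT1, also called HNF6, acts in hepatoblasts and bile ducts, and HNF4A, a nuclear receptor, maintains the differentiated hepatocyte. None of them acts in liver alone: GATA4 and GATA6 also act in heart and other mesoderm, and PROX1 specifies lymphatic endothelium.

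Library totals ranged from 15039566 to 20504338 counts, and 15154 genes had enough reads to be tested. Summed over the 12 genes of a fibroblast list, MEF libraries held 36790 to 37801 CPM (counts per 1000000 counts of the library) and treated libraries 10227 to 13525, so the fibroblast label of the MEF libraries had its defining markers at high levels. No pair of replicates was alike within sampling noise: the chi-square per degree of freedom between the replicates was 4.35 in MEF, 36.4 in carbidopa, 9.38 in CHIR-99021 and 7.60 in LY-364947, so the carbidopa pair stood furthest apart.

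Hnf4a, whose product is the central regulator of the hepatocyte, has 2 annotated starts in the RefSeq promoter table, and the 250 bases before the upstream start are shown because they hold letters bound by other factors of this set. In this window, GRCm38.p6 chr2:163506607-163506856 on the plus strand, capitals mark ATCAAT, letters that the ONECUT family binds, followed by AGATAA, letters that the zinc fingers of Gata6 and its relatives bind. These lie at -59 to -54 and -52 to -47, counted from the RefSeq start. The GENCODE M21 annotation, used below for gene coordinates, begins Hnf4a at 163506808, which lies inside this window.
Hnf4a upstream start: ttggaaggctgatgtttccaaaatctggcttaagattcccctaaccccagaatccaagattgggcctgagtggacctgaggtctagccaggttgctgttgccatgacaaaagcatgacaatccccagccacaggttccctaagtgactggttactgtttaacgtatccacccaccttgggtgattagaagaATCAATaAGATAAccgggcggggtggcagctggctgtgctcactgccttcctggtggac
Both strands were searched for 4 motifs. For the zinc finger factors such as Gata6 the letters were AGATAA, for the FOXA proteins they were TGTTTAC, for the ONECUT proteins they were ATCAAT, and for the Wnt effectors TCF and LEF they were ATCAAAG. Of 32851 promoter windows of this length, 9.99% held the zinc finger letters, 3.17% the FOXA letters, 6.72% the ONECUT letters and 3.21% the TCF and LEF letters. Windows of 6 of the 8 factors were searched, and none of Gata4 or Gata6 was among them. The Prox1, Foxa3 and Onecut1 windows and the downstream Hnf4a window held none of the 4 motifs, Foxa1 held the FOXA letters at -141 to -135, and the Foxa2 windows held ONECUT letters before the most upstream of 3 starts and zinc finger letters before the most downstream. A match describes the sequence and is not a measured binding site, and the counts per gene do not say which start was used.

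Most reads of the set came from Gata6. Summed over the 8 libraries, Gata6 had 5158 reads (85.6% of the set's reads), Prox1 707, Gata4 79, Hnf4a 50, Onecut1 17, Foxa1 10, Foxa3 2 and Foxa2 1. Only Gata6, Prox1 and Gata4 passed the filter on low counts and were tested, which leaves 5 of the 8 factors to be described by their raw reads. The summed level of the set was 9.92 to 12.4 CPM in MEF and 46.7 to 60.3 CPM in treated libraries.

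**Figure D1:**
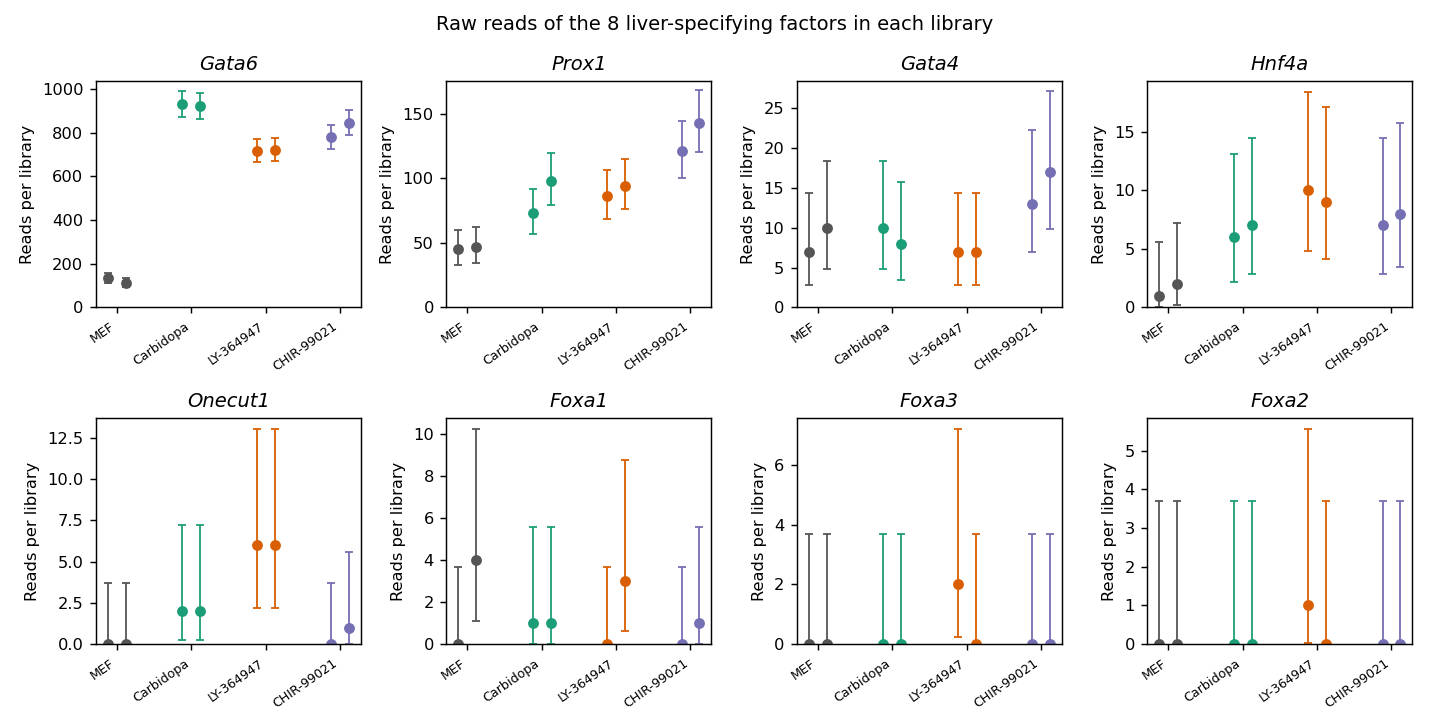
Raw reads of the 8 factors in each library, a panel per gene with its own linear axis from 0, where points are libraries and bars are exact 95% Poisson intervals of the count (counting error only). Gata6 rises from 112 to 134 reads in MEF to 716 to 930 in treated libraries, whereas Foxa1, Foxa2, Foxa3 and Onecut1 stay at 6 reads or fewer in every library.

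Measured in RPKM, which is CPM divided by the length of the exons in kilobases, Gata6 had the highest level of the set (5.47 as the mean of 8 libraries), followed by Prox1 (0.596), Gata4 (0.144), Hnf4a (0.0723), Onecut1 (0.0285), Foxa1 (0.0207), Foxa3 (0.00708) and Foxa2 (0.00304). Gata6 lay above Prox1, and Prox1 above Gata4, in each of the 8 libraries. Hnf4a lay above Gata4 in both LY-364947 libraries and below it in the other 6. The LY-364947 counts were 10 and 9 reads for Hnf4a against 7 and 7 for Gata4. Their exact Poisson intervals overlapped, so the order in that group was not resolved. The ranges of Onecut1, Foxa1, Foxa3 and Foxa2 overlapped, so their order was not resolved. With the length of the longest transcript in place of all exons, the level of Gata6 was 9.41 RPKM and the order of the 8 genes was as above.

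**Figure D2:**
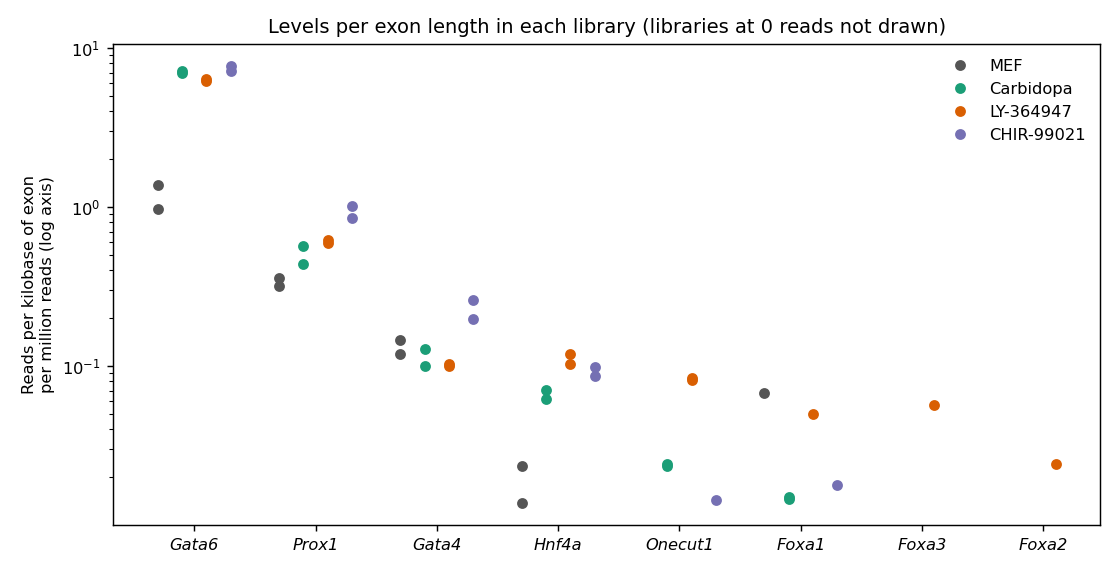
Level of each factor per exon length in each library, in RPKM on a log axis, coloured by group, with libraries at 0 reads left out. Gata6 spans 0.976 to 7.71 and Prox1 0.318 to 1.01, and every other factor lies below 0.3 in every library.

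Gata6 rose in all 3 treatments. Gata6 (ENSMUSG00000005836, mm10 chromosome 18, 11052064 to 11085635, plus strand) encodes a zinc finger factor that acts in endoderm, heart and other mesoderm. It had 134 and 112 reads in MEF, 930 and 922 in carbidopa libraries, 716 and 720 in LY-364947 libraries and 780 and 844 in CHIR-99021 libraries. All 6 treated libraries lay above both MEF libraries, as they did for 23.1% of the genes tested. The levels were 1.17 ± 0.278 RPKM in MEF, 7.03 ± 0.169 in carbidopa, 6.25 ± 0.130 in LY-364947 and 7.42 ± 0.411 in CHIR-99021 libraries (SD, n = 2). By edgeR's quasi-likelihood test with Benjamini-Hochberg adjustment over all genes tested, the mean of the treatments was 5.03-fold above MEF (log2 fold change 2.33, SE 0.13, adjusted p = 3.01e-07). By compound, the log2 fold change of Gata6 was 2.46 for CHIR-99021 (SE 0.15, adjusted p = 7.41e-07), 2.34 for carbidopa (SE 0.15, adjusted p = 1.10e-06) and 2.20 for LY-364947 (SE 0.15, adjusted p = 1.75e-06). Of the 15154 genes tested, 2.02% had a larger log2 fold change than Gata6 for the mean of the treatments. In bulk RNA, more cells that express a gene and more RNA per cell cannot be told apart.

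No pair of treatments was called different in Gata6. The log2 difference of CHIR-99021 from carbidopa was 0.11 (95% interval -0.17 to 0.40, adjusted p = 0.612 by edgeR), that of CHIR-99021 from LY-364947 was 0.26 (-0.03 to 0.55, adjusted p = 0.223), and that of LY-364947 from carbidopa was -0.14 (-0.43 to 0.14, adjusted p = 0.642). These intervals leave room for differences of up to 0.55 on the log2 scale. Both LY-364947 libraries (41.3 and 40.1 CPM) lay below the carbidopa and CHIR-99021 libraries (45.0 to 50.2 CPM). The pooled ratio of LY-364947 was 0.842 to CHIR-99021 (exact 95% interval 0.784 to 0.905) and 0.889 to carbidopa (0.830 to 0.953). Those ratio intervals cover counting error only and leave out the spread between replicates.

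A gene on the other strand overlaps the start of Gata6. 1010001N08Rik, a noncoding transcript on the minus strand and named after its values were seen, starts within Gata6, runs away from it and had 1 and 3 reads in MEF, 30 and 64 in carbidopa libraries, 41 and 38 in LY-364947 libraries and 30 and 18 in CHIR-99021 libraries. It rose as well, with a log2 fold change of 3.70 for the mean of the treatments (SE 0.61, adjusted p = 0.000708 by edgeR). The sources used here do not say whether counting used strand, so reads in the overlap could belong to either gene. The overlap in exons is small: 0.296% of the 75-base words of the Gata6 exons also occur in that gene.

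Prox1 rose for the mean of the treatments and with CHIR-99021. Prox1 (ENSMUSG00000010175, chromosome 1, 190118035 to 190170714, minus strand) encodes the homeobox factor of hepatoblasts and lymphatic endothelium. It had 45 and 47 reads in MEF, 73 and 98 in carbidopa libraries, 86 and 94 in LY-364947 libraries and 121 and 143 in CHIR-99021 libraries. The CHIR-99021 libraries were the highest, and all 6 treated libraries lay above both MEF libraries. In RPKM the level was 0.337 ± 0.0276 in MEF, 0.502 ± 0.0951 in carbidopa, 0.607 ± 0.0231 in LY-364947 and 0.936 ± 0.110 in CHIR-99021 libraries (SD, n = 2). The mean of the treatments was 1.67-fold above MEF (log2 fold change 0.74, SE 0.19, adjusted p = 0.0107, edgeR). This call was lost without MEF replicate 1 (adjusted p = 0.0564) or without MEF replicate 2 (adjusted p = 0.116).

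Prox1 differed between CHIR-99021 and carbidopa. With CHIR-99021 the gene was 2.39-fold above MEF (log2 fold change 1.26, SE 0.22, adjusted p = 0.00127, edgeR). The values against MEF were 0.33 with carbidopa (SE 0.23, adjusted p = 0.275) and 0.63 with LY-364947 (SE 0.23, adjusted p = 0.0590), and neither passed the test. With LY-364947 the test was passed when only LY-364947 and MEF were fitted (adjusted p = 0.0295) and without carbidopa replicate 1 (0.0267) or replicate 2 (0.0276). Between CHIR-99021 and carbidopa libraries Prox1 differed by 0.93 on the log2 scale, CHIR-99021 being higher (SE 0.20, 95% interval 0.47 to 1.38, adjusted p = 0.0139). That difference missed the threshold without CHIR-99021 replicate 1 (adjusted p = 0.0508), without CHIR-99021 replicate 2 (0.101) and when only both groups were fitted (0.0517). Against LY-364947 the CHIR-99021 value was 0.63 (95% interval 0.18 to 1.09, adjusted p = 0.0664), and it passed without carbidopa replicate 1 (adjusted p = 0.0204) or replicate 2 (0.0215), with only both groups fitted (0.0319) and with no filter on low counts (0.0432, where 10.7% of the 26825 genes fitted were called). The fit with no filter had 107300 degrees of freedom, against 10.2 in the main fit, so its p-values hardly use the spread of single genes. LY-364947 and carbidopa gave a difference of 0.30 (adjusted p = 0.570).

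Gata4 had few reads and did not pass the test in any comparison. Gata4 (ENSMUSG00000021944, chromosome 14, 63198922 to 63271692, minus strand), the close relative of Gata6 that also acts in heart, had 7 and 10 reads in MEF, 10 and 8 in carbidopa libraries, 7 and 7 in LY-364947 libraries and 13 and 17 in CHIR-99021 libraries. Only the CHIR-99021 libraries lay above both MEF libraries, and the carbidopa libraries overlapped with MEF. The log2 values against MEF were 0.56 for CHIR-99021 (adjusted p = 0.358, edgeR), -0.47 for carbidopa (adjusted p = 0.476) and -0.61 for LY-364947 (adjusted p = 0.407). CHIR-99021 against LY-364947 gave 1.17 (95% interval 0.13 to 2.20, adjusted p = 0.129) and against carbidopa 1.03 (0.03 to 2.02, adjusted p = 0.157), while LY-364947 against carbidopa gave -0.14 (adjusted p = 0.915). For the mean of the treatments the log2 value of Gata4 was -0.17 (SE 0.40, adjusted p = 0.758). Pooled over the libraries and scaled by total counts, the ratio of treated to MEF in CPM was 1.09 (exact 95% interval for counting error 0.629 to 1.99), opposite in direction to the edgeR value, which was below 0 under every alternative run. The values differ both in scaling and in averaging over treatments; the edgeR value did not pass the threshold, and the interval of the ratio held 1.

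Of the 3 factors tested, 2 were called for the mean of the treatments, both higher, where 41.4% of all genes tested were called and 19.6% were called higher. Carbidopa had 1 of 3 called, Gata6, which was higher, against 37.7% of all genes tested called and 18.0% called higher. LY-364947 also had 1 of 3, the higher Gata6, against 31.0% called and 13.7% called higher. With CHIR-99021, Gata6 and Prox1 were called higher, 2 of 3, against 38.8% called and 18.7% called higher. Between treatments, 1 of 3 was called for CHIR-99021 against carbidopa, Prox1, which was higher, where 14.7% of all genes tested were called and 6.62% were called higher. For CHIR-99021 against LY-364947 edgeR called 0 of 3 (14.1% of all genes tested were called, 6.45% higher), with 2 of the 3 at an unadjusted p under 0.05, as were 29.0% of all genes tested, and DESeq2 called 0. LY-364947 against carbidopa gave 0 of 3 by edgeR and by DESeq2 (0.0132% of all genes tested were called by edgeR, all of them higher), with 0 of the 3 at an unadjusted p under 0.05, where 9.02% of all genes tested were. The median log2 fold change of the 3 factors for the mean of the treatments was 0.74, beside 0.03 over all genes tested. With 3 genes tested, these shares describe the genes and say nothing of the set.

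Hnf4a was detected in every library at 10 reads or fewer. Hnf4a (ENSMUSG00000017950, chromosome 2, 163506808 to 163572910, plus strand) had 1 and 2 reads in MEF, 6 and 7 in carbidopa libraries, 10 and 9 in LY-364947 libraries and 7 and 8 in CHIR-99021 libraries. All 6 treated libraries lay above both MEF libraries, a pattern that 14.0% of the 26825 genes with a read shared. The exact two-sided permutation test of treated against MEF in CPM gave p = 0.0714, which is the smallest p that 6 against 2 libraries allow. The pooled reads were 47 in treated libraries and 3 in MEF, a ratio of 4.68 in CPM (exact 95% interval 1.51 to 23.5, counting error only). By treatment the ratio to MEF was 5.86 for LY-364947 (1.73 to 30.9), 4.86 for CHIR-99021 (1.37 to 26.2) and 3.50 for carbidopa (0.961 to 19.1). Without the filter on low counts edgeR gave a log2 fold change of 1.93 for the mean of the treatments (SE 0.87, adjusted p = 0.0913), so it was not called, where 26.2% of the 26825 genes of that fit were. In RPKM its level was 0.0186 ± 0.00687 in MEF and at most 0.112 ± 0.0111 with LY-364947 (SD, n = 2). The antisense gene Hnf4aos, which overlaps Hnf4a, had 0 reads in every library.

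Onecut1 was read mostly in LY-364947 libraries. Onecut1 (ENSMUSG00000043013, chromosome 9, 74861921 to 74891781, plus strand), the factor of hepatoblasts and bile ducts, had 0 reads in both MEF libraries, 2 and 2 in carbidopa libraries, 6 and 6 in LY-364947 libraries and 0 and 1 in CHIR-99021 libraries. Both LY-364947 libraries lay above every other library. A count of 0 allows up to 3 reads, and against that limit for the MEF group the LY-364947 libraries were at least 3.70-fold higher and the 6 treated libraries at least 1.69-fold higher in CPM. With counting error on both sides, the exact 95% lower limits of these ratios were 2.57 and 1.23. Without either MEF library the bound of 1.69 falls below 1, to 0.913 and 0.779. LY-364947 gave 3.44 times the level of carbidopa (12 against 4 reads, exact 95% interval 1.04 to 14.6) and 11.4 times that of CHIR-99021 (12 against 1 read, 1.69 to 489, counting error only). The permutation test of treated against MEF gave p = 0.214 (exact, two-sided), with 5 of 6 treated libraries above both MEF libraries. Without the filter on low counts, the adjusted p of Onecut1 for LY-364947 against MEF was 0.0608 by edgeR, where 19.1% of the 26825 genes fitted were called. The gene Gm20649 overlaps Onecut1 on the same strand and shares 52.0% of its 75-base words, so part of the Onecut1 reads may not have been assigned to it. Gm20649 had 3 reads in MEF replicate 2, where Onecut1 had 0, 1 read in LY-364947 replicate 2 and 0 in the other 6 libraries, so the MEF value behind the Onecut1 bounds is open to such an assignment.

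The FOXA genes, whose products open liver chromatin for other factors, were barely read. Foxa1 (ENSMUSG00000035451, chromosome 12, 57540628 to 57546916, minus strand) had 0 and 4 reads in MEF, 1 and 1 in carbidopa libraries, 0 and 3 in LY-364947 libraries and 0 and 1 in CHIR-99021 libraries. Every treated group of Foxa1 libraries overlapped with MEF, and the pooled ratio of treated to MEF was 0.448 (6 against 4 reads, exact 95% interval 0.106 to 2.16, counting error only). Leaving out MEF replicate 1 gave a ratio of 0.242, and leaving out LY-364947 replicate 2 gave 0.268. MEF replicate 2 held all 4 MEF reads, so no ratio can be had without it. Foxa2 (ENSMUSG00000037025, chromosome 2, 148042877 to 148046969, minus strand) had a single read, in LY-364947 replicate 1. Foxa3 (ENSMUSG00000040891, chromosome 7, 19013284 to 19023538, minus strand) had 2 reads, both in LY-364947 replicate 1, and 0 reads in the other 7 libraries. No difference in a FOXA gene was detectable at this depth.

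**Figure D3:**
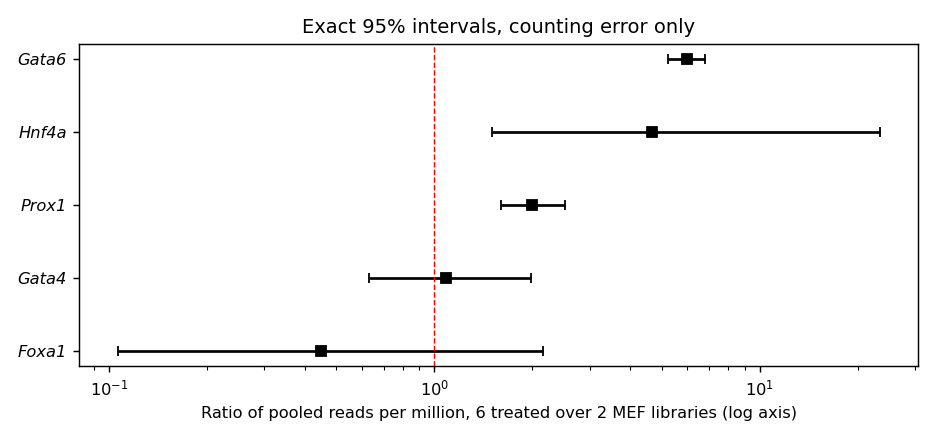
Ratio of pooled CPM in the 6 treated libraries to the 2 MEF libraries for the 5 factors with reads in both, on a log axis, where squares are ratios, bars are exact 95% intervals for counting error alone and the dashed line marks 1. The intervals of Gata6 (5.25 to 6.81), Hnf4a (1.51 to 23.5) and Prox1 (1.60 to 2.51) lie above 1, and those of Gata4 and Foxa1 include it.

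Relatives and cofactors of the set moved as well, beginning with the GATA family. Of a list of 10 genes, 6 were tested, of which 4 rose, 1 fell and 1 did not pass for the mean of the treatments. Gata3, a GATA factor of trophoblast, T cells and other tissues, had 45 and 61 reads in MEF, 604 and 571 in carbidopa libraries, 573 and 568 in LY-364947 libraries and 781 and 774 in CHIR-99021 libraries. Its log2 fold change was 3.21 for the mean of the treatments (SE 0.13, adjusted p = 1.83e-08, edgeR), and all treated libraries lay far above MEF. Per exon length, Gata3 had 0.811 ± 0.0830 RPKM in MEF, 7.30 ± 0.420 in carbidopa, 8.13 ± 0.252 in LY-364947 and 11.6 ± 0.0785 in CHIR-99021 libraries (SD, n = 2). The order of Gata3 and Gata6 in the carbidopa and LY-364947 groups depended on the length used. By all exons Gata3 lay above Gata6 with LY-364947 and the levels overlapped with carbidopa. By the longest transcript Gata3 lay below Gata6 with LY-364947 (10.1 ± 0.312 against 10.8 ± 0.224 RPKM) and with carbidopa (9.03 ± 0.520 against 12.1 ± 0.290 RPKM). By both lengths Gata3 was above Gata6 with CHIR-99021 and below it in MEF. CHIR-99021 gave more Gata3 than carbidopa by 0.71 on the log2 scale (SE 0.11, adjusted p = 0.00231) and more than LY-364947 by 0.53 (SE 0.11, adjusted p = 0.0109).

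Gata2, which acts in blood and endothelium, had 16 and 6 reads in MEF and 27 to 46 in treated libraries (log2 fold change 1.43, SE 0.41, adjusted p = 0.0173, edgeR). Gata1 had 0 reads in every library and Gata5 at most 1. The FOG cofactors, which bind GATA proteins and alter their activity, moved in opposite directions. Zfpm2 (FOG2), the partner of GATA4 in heart, fell from 569 and 684 reads to 263 to 335 (log2 fold change -1.49, SE 0.10, adjusted p = 6.83e-07). Zfpm1 (FOG1), the partner of GATA1 in blood, rose from 203 and 224 reads to 356 to 551 (log2 fold change 0.63, SE 0.14, adjusted p = 0.00395). Among relatives of the other factors, Prox2 rose (1.01, SE 0.31, adjusted p = 0.0252), Onecut2 gave 0.01 (adjusted p = 0.990), Onecut3 had at most 1 read and Hnf4g had 0 reads in every library.

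**Figure D4:**
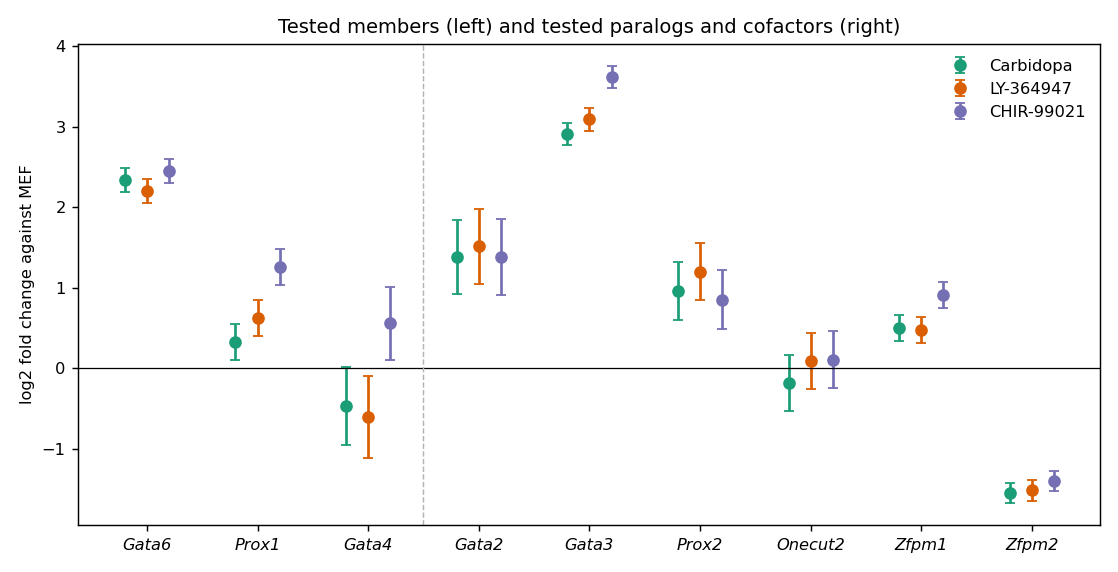
Log2 fold change against MEF by edgeR for the 3 factors tested (left of the dashed line) and the 6 tested relatives and cofactors (right), coloured by treatment, with bars of 1 SE. Gata6 lies between 2.20 and 2.46 and Gata3 between 2.91 and 3.62 in the 3 treatments, while Zfpm2 lies between -1.55 and -1.40.

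Other liver-enriched transcription factors moved both ways. Of 20 genes, a list that shares Onecut2 with the relatives above, 11 were tested, of which 2 rose, 3 fell and 6 did not pass for the mean of the treatments, with a median log2 fold change of -0.05. Tbx3, which is needed for hepatoblasts to expand, rose by 0.50 on the log2 scale (SE 0.10, adjusted p = 0.00215, edgeR), and Hlx, a factor of the tissue around the liver bud, rose by 0.84 (SE 0.29, adjusted p = 0.0393). Both were named after their values were seen. Sox9, a factor of bile ducts and cartilage, gave -0.94 (SE 0.13, adjusted p = 0.000266), and Rxra, a partner of nuclear receptors, gave -0.61 (SE 0.09, adjusted p = 0.000452). Xbp1, a factor of the unfolded protein response, gave -0.61 as well (SE 0.08, adjusted p = 0.000115). Carbidopa and LY-364947 each had 1 of the 11 higher and 3 lower, and CHIR-99021 had 2 higher and 3 lower. Sox17, a factor of early endoderm, had 0 reads in every library.

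Genes that these factors activate in hepatocytes were at or near 0. Of a list of 30 hepatocyte genes, 13 had 0 reads in every library, 23 had at most 3 reads in any library and only Trf, the transferrin gene that is also expressed outside liver, passed the filter. Alb (albumin) had 2 and 0 reads in MEF, 5 and 8 in carbidopa libraries, 8 and 10 in LY-364947 libraries and 6 and 7 in CHIR-99021 libraries, so all 6 treated libraries lay above both MEF libraries. Afp, the fetal albumin relative, had 1 and 2 reads in MEF, 0 and 3 with carbidopa and 0 reads in the other 4 treated libraries. Without Trf, the 29 other genes summed to 18 and 17 reads in MEF and 26 to 46 in treated libraries, or 0.964 to 1.20 CPM against 1.45 to 2.24 CPM. Trf itself was higher with carbidopa (log2 fold change 0.80, adjusted p = 0.0231, edgeR), while LY-364947 gave 0.54 (adjusted p = 0.120) and CHIR-99021 gave -0.61 (adjusted p = 0.0838).

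Genes of hepatoblasts and bile duct epithelium rose and fell. Of 11 genes, 8 were tested, of which 5 rose (Dlk1, Krt18, Krt19, Cldn4 and Cd24a) and 3 fell (Krt7, Spp1 and Lgr5) for the mean of the treatments. Dlk1, a marker of hepatoblasts, rose with carbidopa (log2 fold change 1.16, adjusted p = 9.61e-05, edgeR) and LY-364947 (0.81, adjusted p = 0.00115), while CHIR-99021 gave -0.19 (adjusted p = 0.284). Untreated MEFs already held 3150 and 3581 reads of Dlk1, so its expression was not particular to the treated cells. Cd24a, a surface protein of progenitors, rose from 186 and 202 reads to 448 to 557 (log2 fold change 0.95, SE 0.12, adjusted p = 0.000103, edgeR). Lgr5, a receptor of Wnt agonists, fell from 5347 and 6550 reads to 9 to 18 (-9.21, SE 0.14, adjusted p = 8.49e-11). Epcam and Cdh1, which mark epithelium, had 0 reads in MEF, with 2 to 6 and 0 to 4 reads in treated libraries.

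Markers of other cell types that express these factors moved beside them, and their part in the values above was not tested. Cardiac muscle genes, of which Gata4 and Gata6 are regulators, summed to 54.1 to 54.7 CPM in MEF and 32.2 to 38.7 in treated libraries. Of 12 such genes, 5 were tested, with 0 higher and 2 lower (Tnnt2 and Mef2c) for the mean of the treatments by edgeR. Myh6 and Nppa had at most 3 reads in any library and Nkx2-5 at most 1. Of 8 genes of mesothelium, where Gata6 and Gata4 are expressed, all were tested: 3 were higher (Wt1, Krt19 and Podxl) and 5 lower, and their sum was 51.0 to 56.2 CPM in MEF and 19.7 to 33.7 in treated libraries. Of 10 endothelial and lymphatic genes, 6 were tested, with 1 higher and 3 lower, and a sum of 356 to 374 CPM in MEF and 259 to 349 in treated libraries. Most of the MEF sum was Pdpn, a gene also expressed in fibroblasts, at 315 to 325 CPM in MEF and 101 to 143 in treated libraries. Pdpn was then left out, a choice made after seeing the data. The other 9 genes summed to 41.4 to 48.8 CPM in MEF and 135 to 248 in treated libraries. That rise rested on Flt4, which held 2453 of the 2707 reads in carbidopa replicate 1 and 3890 of 4162 in CHIR-99021 replicate 1. Flt4 was the 1 gene of the list called higher. Flt4, the VEGFR3 gene of lymphatic endothelium, where Prox1 acts upstream of it, had 470 and 469 reads in MEF and 2283 to 3890 in treated libraries (log2 fold change 2.23, SE 0.12, adjusted p = 1.91e-07). Pecam1, the pan-endothelial marker, had at most 4 reads in any library and Cdh5 at most 7. Other genes of this list were read: Kdr had 156 and 141 reads in MEF and 150 to 246 in treated libraries. Emcn had 72 and 81 reads in MEF and 9 to 23 in treated libraries, and Tek had 29 and 35 against 11 to 34. Of 9 genes of gut and lung endoderm, 0 were tested and 4 had 0 reads in every library, with sums of 0 to 0.11 CPM in MEF and 0.12 to 0.48 in treated libraries.

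For each factor tested, the genes with the most similar pattern over the 8 libraries are given as a description, in which the points share library and treatment. Gata6 was most alike to Patz1 (Pearson r = 0.999 in TMM-scaled log2 CPM) and Dusp10 (0.995). Dusp10, a phosphatase of stress-activated kinases, had 97 and 104 reads in MEF and 692 to 952 in treated libraries, and Patz1, a zinc finger factor, had 210 and 217 reads in MEF and 530 to 661 in treated libraries. Prox1 was most alike to Tex10 (0.991) and Ppip5k2 (0.990). Gata4 was most alike to Ncbp1 (0.973) and Coq10b (0.970), where the counts of Gata4 were too sparse for the pattern to be a finding.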

How the data were processed

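The data are RNA-seq libraries of untreated MEFs and of MEFs cultured with each of 3 compounds, 2 per group, with groups taken from the labels. The authors mapped reads with STAR 2.4.2a to mm10, counted them per gene with featureCounts and deposited the raw counts, without normalization. The annotation release and the use of strand were not given in the sources used here. The labels and methods name different library kits (SMARTER and NEBNext Ultra). Of 50578 identifiers, 50354 (99.6%) matched GENCODE M21, which gave coordinates and exon lengths. Library totals were 15039566 to 20504338 counts. Reads carry no molecular identifiers, so intervals cover counting error only, and a count of 0 allows 3 reads.

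Counts were tested in R 4.3.3 with edgeR 4.0.16 (TMM, filterByExpr, quasi-likelihood test on 15154 genes, with a term for group alone and a joint fit of the 8 libraries). Differences with a Benjamini-Hochberg adjusted p under 0.05 were called. The SE is the log2 fold change divided by the square root of F. The mean of the treatments weighs the 3 groups equally. All comparisons with MEF share those libraries. Factors under the filter were described by raw reads, exact Poisson and conditional intervals and an exact permutation test. RPKM used the length of all exons.

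The factors and gene lists were chosen with earlier results of these data known. The genes named are the 8 factors, the 2 genes most alike to each factor tested, up to 3 genes per list with the smallest p, Alb, Afp and defining markers, and all other named genes were chosen after their values were seen. Alternatives were RLE size factors, no filter, at least 10 counts in every library, only the groups compared, a replicate block, DESeq2 1.42.0, and each replicate left out. With a replicate left out, the lone library is assumed to vary like the other groups. The fit with no filter had 107300 degrees of freedom, against 10.2 in the main fit. Its p-values for Hnf4a, Onecut1 and Prox1 therefore hardly use the spread of single genes and are not like those of the main fit. The test was checked on simulated data. Some genes of the lists are not reported here.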

Additional observations from a re-analysis of the deposited data

Results flagged for a closer look

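Prox1 stood out because the effects of 2 treatments differed: its level in CHIR-99021 libraries exceeded that in carbidopa libraries by 0.93 on the log2 scale (SE 0.20, adjusted p = 0.0139 by edgeR), with both CHIR-99021 libraries (121 and 143 reads) above both carbidopa libraries (73 and 98 reads). Gata3, the GATA relative of the set, differed between treatments as well, by 0.71 for CHIR-99021 against carbidopa (adjusted p = 0.00231) and by 0.53 for CHIR-99021 against LY-364947 (adjusted p = 0.0109), with both CHIR-99021 libraries above the other 4 treated libraries. No group was large enough for a search for single libraries far from the rest.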

How the results depend on the processing

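Gata6 was called in each comparison with MEF under every alternative run (log2 fold change of the mean of the treatments 2.11 to 2.57), and Prox1 with CHIR-99021 under all 14 (1.13 to 1.38). With each replicate left out in turn, factors called ranged from 1 to 2 for the mean of the treatments (1 without either MEF replicate), 1 to 2 with LY-364947, 0 to 1 for CHIR-99021 against carbidopa and 0 to 1 for CHIR-99021 against LY-364947. With only the groups compared in the fit, 2 factors were called with LY-364947 (6951 of all genes), 0 for CHIR-99021 against carbidopa and 1 for CHIR-99021 against LY-364947. The latter was also 1 with no filter (2863 of all genes) and 1 with a replicate block in which the LY-364947 numbers were exchanged (3029 of all genes), an alternative chosen after seeing the data because same-numbered LY-364947 and carbidopa libraries deviated oppositely (r = -0.161). The causes were not tested. Whether replicate numbers pair the libraries is not stated in the sources used here. Deviations of same-numbered libraries correlated at -0.161 to 0.128, with 0.128 for carbidopa and CHIR-99021 and -0.148 for LY-364947 and CHIR-99021. With the replicate block, Prox1 with CHIR-99021 against carbidopa was 0.93, and no call of a factor changed.

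Over all genes, leaving out a replicate gave 3559 to 8292 calls for the mean of the treatments (6275 with all), 3164 to 7971 with carbidopa (5717), 2885 to 6466 with LY-364947 (4694), 3487 to 7722 with CHIR-99021 (5878), 735 to 4675 for CHIR-99021 against carbidopa (2227), 665 to 4255 for CHIR-99021 against LY-364947 (2143) and 2 to 3832 for LY-364947 against carbidopa (2), the 3832 without carbidopa replicate 2. With only the groups compared, the 3 comparisons between treatments gave 988, 3571 and 0 calls, and LY-364947 against carbidopa gave 329 with no filter and 16 by DESeq2. The log2 difference of Gata4 between LY-364947 and carbidopa ranged from -0.29 without carbidopa replicate 2 to 0.035 without carbidopa replicate 1, where it changed sign. The Onecut1 bound for the treated libraries ranged from 0.779 to 2.00, and the Gata6 level was 9.41 RPKM with the longest transcript. Of the values of single genes, 276 kept direction and side of the threshold, 8 passed it, 5 missed it and 1 changed sign. Depth limits Hnf4a, Gata4, Onecut1 and the FOXA genes, at 17 reads or fewer per library.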

Other observations

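Genes of skeletal muscle, nerve, gonad, macrophage and fibroblast had lower sums in treated libraries. Of 10 skeletal muscle genes, 3 were tested and 2 fell for the mean of the treatments by edgeR, and their sum was 42.4 to 45.7 CPM in MEF and 8.65 to 19.9 in treated libraries. Of 10 neural genes, 5 were tested and 3 fell (Map2, Stmn2 and Tubb3), with sums of 77.7 to 82.5 CPM in MEF and 12.1 to 13.9 in treated libraries. Of 8 genes of gonad and adrenal stroma, 4 were tested: Lhx9 fell (log2 fold change -3.18, SE 0.19, adjusted p = 4.65e-07) and Hsd3b1, a steroid dehydrogenase gene, rose (2.47, SE 0.53, adjusted p = 0.00384) from 2 and 4 reads in MEF to 8 to 43 in treated libraries. All 10 macrophage genes fell, and their sum was 939 to 959 CPM in MEF and 78.4 to 343 in treated libraries. Of the 12 fibroblast genes, 10 fell and 1 rose, with Acta2, the smooth muscle actin of activated fibroblasts, at 29058 and 30524 reads in MEF and 1631 to 2331 in treated libraries.

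Lyve1, a surface receptor of lymphatic endothelium, had 1 read in each MEF library, 13 and 14 in carbidopa libraries, 6 and 12 in LY-364947 libraries and 1 and 3 in CHIR-99021 libraries. It was called higher with carbidopa (log2 fold change 3.07, SE 0.79, adjusted p = 0.0126 by edgeR) and with LY-364947 (2.71, SE 0.84, adjusted p = 0.0321), and not with CHIR-99021 (0.69, SE 1.09, adjusted p = 0.655). Of the 6 endothelial and lymphatic genes tested, carbidopa and LY-364947 each had 2 higher and 2 lower. With CHIR-99021, 1 was higher and 3 were lower. Differences between the treatments in Lyve1 are not given here.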
